A study of Mus musculus with 18 samples.

Results

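Oxidative phosphorylation subunits were the 111 probe sets of 35382 on the array whose single gene symbol began with Nduf and a subunit letter and digit (complex I), was Sdha, Sdhb, Sdhc or Sdhd (complex II), or began with Uqcr (complex III), Cox4 to Cox8 (complex IV) or Atp5 (complex V, the ATP synthase). They stood for 80 genes of the 18781 with a symbol of their own: 35 genes of complex I, 4 of complex II, 7 of complex III, 17 of complex IV and 17 of complex V. A gene with several probe sets, as 22 of the 80 had, is given by its brightest probe set, taken over the mean of the 18 arrays, and a further 9 probe sets that carried a subunit symbol beside another symbol were left out. No mitochondrially encoded subunit was among the named probe sets. The rule for members used symbols only and no measured value, but it was chosen with earlier results of these data known.

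The values came from a crossed design of genotype and tissue in C57BL/6 mice. TN-XXL, a protein sensor whose fluorescence reports calcium, is built around a calcium-binding domain of troponin C, and mice that carry it as a transgene were compared with wild type littermates. The 6 groups were transgenic (Tg) and wild type (WT) skeletal muscle, Tg and WT heart, and Tg and WT hippocampus, with 3 Affymetrix arrays each and 18 in all. The titles mark the transgenic arrays "+/+". The sources used here do not give the promoter of the transgene, the age and sex of the mice or the muscle taken. Nothing in the labels says whether arrays of a group came from separate animals, so the p-values speak of the spread among these samples alone, which may be technical, and the number of arrays limits the precision.

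Values are log2 expression values. They were tested with limma's moderated t and F statistics in 1 fit to all 18 arrays, and a gene was called where its Benjamini-Hochberg adjusted p over all 35382 probe sets was under 0.05. The error given with a difference is the SE of that fit, with 3 arrays in each group. The tissue labels fitted the tissue markers. The mean log2 value of 9 neuronal genes was 9.79 to 9.89 on the hippocampus arrays and 2.37 to 3.29 on the others, that of 7 cardiac muscle genes was 10.16 to 10.34 on the heart arrays and at most 4.22 on the others, and that of 10 fast fibre genes was 11.11 to 11.23 on the skeletal muscle arrays and at most 3.28 on the others. Arrays of a group correlated at 0.982 to 0.993, and no array stood apart by this measure.

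Complexes I to IV pass electrons from NADH and succinate to oxygen in the inner mitochondrial membrane, and complexes I, III and IV pump protons as they do so. Complex V uses the proton gradient to make ATP. The subunits studied here are encoded in the nucleus and imported, and each of complexes I, III, IV and V also holds subunits made from mitochondrial DNA. Heart and skeletal muscle are known for their high demand on this system, and in mice they replace several subunits of complex IV by isoforms of their own. COX6A2, COX7A1 and COX8B take the places that COX6A1, COX7A2 and COX8A fill in most other tissues, brain included.

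Between the tissues of wild type mice, the isoforms of complex IV showed the widest differences of all members. Cox8b stood at 2.71, 2.84 and 2.74 in WT hippocampus, at 10.82, 10.97 and 10.96 in WT heart and at 10.41, 10.36 and 10.32 in WT skeletal muscle. Its hippocampus values lay under the median of those arrays, which was 3.70 on average. The fitted difference was −7.60 ± 0.08 between hippocampus and muscle (adjusted p = 1.22e-18) and −8.15 ± 0.08 between hippocampus and heart (7.72e-19), but values this dim carry little measured signal. With the array median in place of the hippocampus values, Cox8b was at least 101-fold lower than in muscle (−6.66) and at least 148-fold lower than in heart (−7.21). Cox7a1 stood at 3.72, 4.09 and 4.07 in hippocampus, 10.82, 11.13 and 10.97 in heart and 10.47, 10.35 and 10.25 in muscle. It was lower in hippocampus than in muscle by a log2 difference of −6.40 ± 0.11 (5.71e-17) and lower than in heart by −7.01 ± 0.11 (2.85e-17). Cox6a2, at 4.28, 4.30 and 4.34 in hippocampus, 10.75, 10.76 and 10.68 in heart and 9.85, 9.95 and 10.05 in muscle, differed by −5.64 ± 0.09 and −6.42 ± 0.09 (2.57e-17 and 7.86e-18). The muscle-type isoforms were thus far higher in both striated muscles, and no hippocampus array came near them.

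The general isoforms ran the other way for Cox6a1 and Cox8a. Cox6a1 stood at 7.66, 7.84 and 7.52 in WT hippocampus, 5.76, 5.62 and 5.65 in WT heart and 4.30, 4.85 and 3.99 in WT muscle. It was higher in hippocampus than in muscle by 3.29 ± 0.15 (adjusted p = 1.70e-11) and than in heart by 2.00 ± 0.15 (1.07e-08). These values are of the brighter of its 2 probe sets. With both averaged, Cox6a1 was called higher in hippocampus in both comparisons. Cox8a stood at 10.54, 10.52 and 10.41 in hippocampus, 8.86, 9.09 and 8.67 in heart and 7.62, 7.66 and 7.51 in muscle, and was higher in hippocampus by 2.89 ± 0.10 against muscle (5.38e-13) and by 1.62 ± 0.10 against heart (9.90e-10). These directions and calls held under other scalings, but the sizes did not. With arrays centred on their medians, the difference of Cox6a1 was 2.03 against muscle and 0.91 against heart, and that of Cox8a 1.63 and 0.53; after quantile normalization they were 2.03 and 1.10, and 2.46 and 1.29. Both genes were also higher in heart than in skeletal muscle, by 1.29 ± 0.15 for Cox6a1 and 1.27 ± 0.10 for Cox8a (5.78e-06 and 7.79e-08). Cox7a2 did not follow this pattern: it stood at 6.92, 7.02 and 6.91 in hippocampus, 7.84, 7.99 and 7.94 in heart and 7.04, 6.91 and 6.77 in muscle. Its hippocampus and muscle values overlapped (difference 0.05 ± 0.08, adjusted p = 0.591), and heart was above muscle by 1.02 ± 0.08 (5.43e-08). With arrays centred or quantile normalized, Cox7a2 was lower in hippocampus than in muscle, by −1.21 or −1.05.

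**Figure D1:**
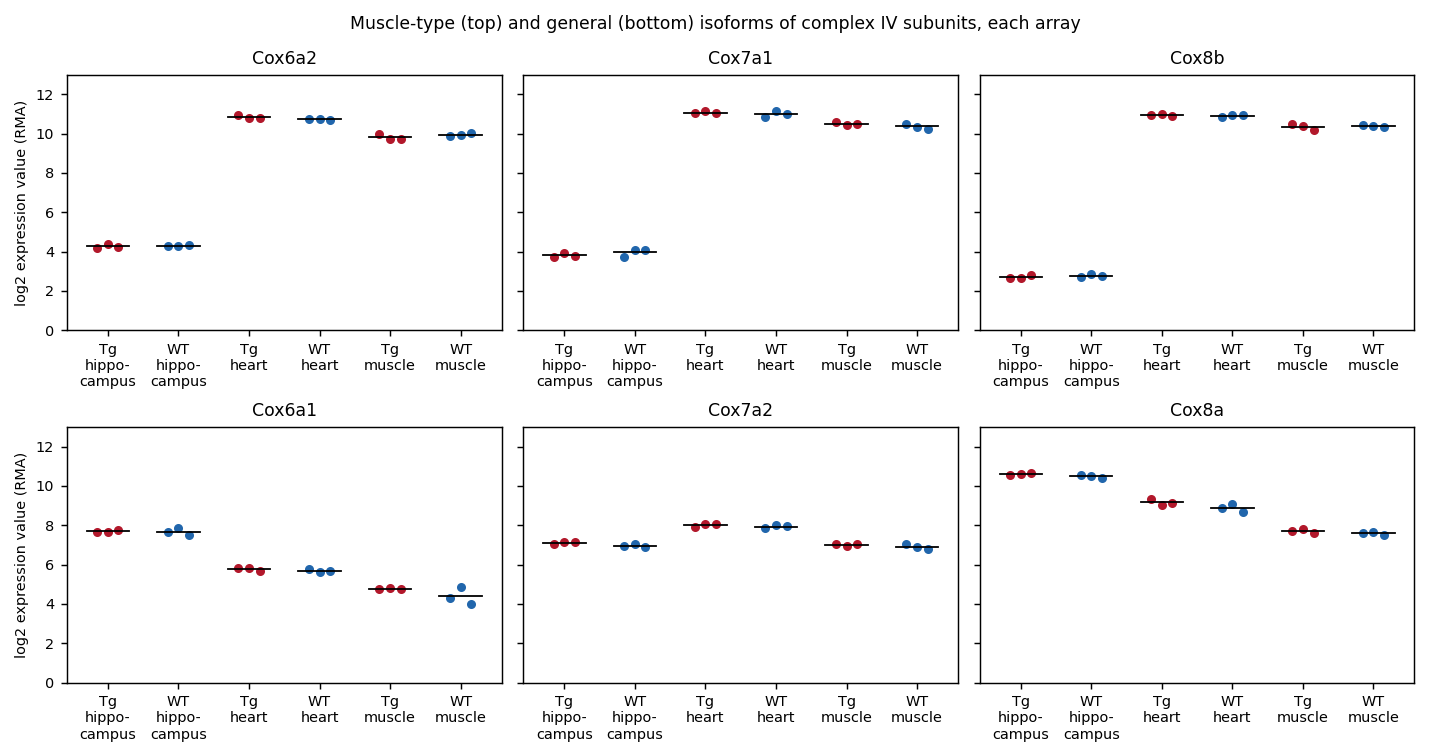
Log2 expression value of 6 complex IV isoform genes on each array (points; red Tg, blue WT; the line is the mean of 3 arrays), with tissues and genotypes along the horizontal axis. The upper genes stand between 2.63 and 4.40 in hippocampus and between 9.73 and 11.13 in heart and muscle, while Cox6a1 and Cox8a below are highest in hippocampus.

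Other isoforms differed less. Cox4i2, an isoform of COX4 known from lung and from responses to low oxygen, stood at 3.76, 3.82 and 3.48 in hippocampus, 5.46, 5.45 and 5.45 in heart and 3.49, 3.62 and 3.83 in muscle, so that heart lay above muscle by 1.81 ± 0.10 (adjusted p = 1.29e-09), the largest such difference among the members. In hippocampus its values lay close to the array medians, with arrays 1 and 2 above and array 3 below. Its partner Cox4i1 was higher in heart than in muscle by 0.99 ± 0.07 and lower in hippocampus than in muscle by −0.35 ± 0.07. The testis isoforms Cox6b2, Cox7b2 and Cox8c lay under the array median in WT hippocampus and muscle, and Cox7b2 and Cox8c in heart too, so their differences between tissues are not read. Of the genes of the c ring of complex V, Atp5g3 was higher in heart than in muscle by 0.80 ± 0.07 and Atp5g1 by 0.32 ± 0.07, while Atp5g2 was not called (0.10 ± 0.08, adjusted p = 0.356).

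The promoters of 2 muscle-type isoforms and of their general partners are shown because these pairs carry the largest tissue differences. The partners were added to the fixed choice of promoters for this comparison. The sequences are RefSeq's for assembly GRCm38.p6, 250 bases before to 50 after the gene start, and Cox6a2 had no entry. Capitals mark matches, on either strand, to 6 motifs: the NRF1 core GCGCNTGCG, GABP CCGGAAGT, ERR TNAAGGTCA, YY1 AAGATGGCG, MEF2 TATTTNTA and the E box CAGCTG.
Cox7a1, chr7:30183921-30184220, plus strand: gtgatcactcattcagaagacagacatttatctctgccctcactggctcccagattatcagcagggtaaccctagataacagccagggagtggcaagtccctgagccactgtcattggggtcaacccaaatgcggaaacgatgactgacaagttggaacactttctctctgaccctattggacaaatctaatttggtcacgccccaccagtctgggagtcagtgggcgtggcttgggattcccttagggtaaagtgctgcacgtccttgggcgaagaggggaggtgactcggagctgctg
Cox8b, chr7:140900397-140900696, minus strand: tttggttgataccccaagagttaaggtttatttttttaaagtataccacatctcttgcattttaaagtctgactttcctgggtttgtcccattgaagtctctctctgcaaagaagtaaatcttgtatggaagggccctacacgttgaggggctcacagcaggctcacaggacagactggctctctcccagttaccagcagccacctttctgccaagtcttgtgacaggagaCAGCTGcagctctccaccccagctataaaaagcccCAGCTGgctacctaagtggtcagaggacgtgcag
Cox6a1, chr5:115348909-115349208, minus strand: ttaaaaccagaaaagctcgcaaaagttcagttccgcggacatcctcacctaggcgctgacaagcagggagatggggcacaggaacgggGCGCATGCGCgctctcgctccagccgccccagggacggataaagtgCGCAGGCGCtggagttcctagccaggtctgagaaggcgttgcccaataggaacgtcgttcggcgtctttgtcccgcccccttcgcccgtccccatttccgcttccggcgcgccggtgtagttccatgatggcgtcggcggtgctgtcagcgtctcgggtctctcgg
Cox8a, chr19:7217567-7217866, minus strand: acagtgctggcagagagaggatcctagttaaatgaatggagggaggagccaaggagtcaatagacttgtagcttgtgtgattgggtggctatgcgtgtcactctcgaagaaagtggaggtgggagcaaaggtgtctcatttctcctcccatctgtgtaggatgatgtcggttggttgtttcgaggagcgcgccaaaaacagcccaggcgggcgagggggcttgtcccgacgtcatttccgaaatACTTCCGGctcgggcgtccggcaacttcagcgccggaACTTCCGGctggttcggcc
The window of Cox7a1 held none of the 6 motifs, and that of Cox8b held 2 E boxes, starting 19 bases before and 16 after the gene start. Cox6a1 held NRF1 cores at 3 positions, of which 2 overlap in 1 run, and Cox8a held 2 GABP motifs on the minus strand of the printed sequence.

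NRF1 and GABP are transcription factors known to bind the promoters of many nuclear genes of the respiratory chain. Promoters matched for 66 of the 80 genes (71 promoters). The NRF1 core was in 35.2% of them, against 6.31% of all 32851 promoters in the table, and the YY1 motif in 9.86% against 1.40%. The ERR motif was in 4.23% against 1.28%, the GABP motif in 7.04% against 3.89%, the E box in 8.45% against 16.3%, and the MEF2 motif in 0 of 71 promoters against 5.99% of all. By complex, the NRF1 core was found in 9 of 31 genes of complex I, 2 of 3 of complex II, 3 of 5 of complex III, 1 of 12 of complex IV (Cox6a1) and 9 of 15 of complex V. The shares were not adjusted for base composition, overlapping matches on the opposite strands were counted within 1 promoter, and a match is not a bound site.

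Most subunit transcripts were higher in heart than in skeletal muscle in wild type mice. Of the 80 genes, 68 were higher in heart, 0 were lower and 12 were not called, with a median log2 difference of 0.54 against 0.07 for all probe sets; 25.6% of all probe sets were called higher and 13.1% lower. The calls covered 27 of 35 genes of complex I, all 4 of complex II, all 7 of complex III, 15 of 17 of complex IV and 15 of 17 of complex V. Ndufb10, a membrane arm subunit of complex I, had the largest difference in that complex (1.66 ± 0.10, adjusted p = 2.56e-09), with values of 6.38, 6.58 and 6.39 in heart and 4.84, 4.75 and 4.77 in muscle. Ndufa5 followed at 1.34 ± 0.11, and Uqcrfs1, the Rieske iron-sulfur protein of complex III, stood at 1.04 ± 0.11. All 4 succinate dehydrogenase genes were higher in heart: the flavoprotein gene Sdha by 0.52 ± 0.07, the iron-sulfur gene Sdhb by 0.81 ± 0.09, and the anchor genes Sdhc and Sdhd by 0.45 ± 0.07 and 0.49 ± 0.10. The smallest called differences were those of Cox6c (0.21 ± 0.07), Ndufa12 (0.24 ± 0.09), Ndufc2, Ndufv2, Ndufb9 and Uqcr10 (0.27 to 0.31).

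Most subunit transcripts were lower in hippocampus than in either striated muscle. Against skeletal muscle, 63 of the 80 genes were lower in hippocampus, 9 were higher and 8 were not called (median −0.79), where 8.1% of all probe sets were called lower and 70.1% higher (median 0.67). Against heart, 71 were lower, 4 higher and 5 not called (median −1.36), where 9.46% of all probe sets were lower and 67.3% higher (median 0.61). By their brightest probe sets, all genes of complexes II and III were lower in hippocampus in both comparisons. With the probe sets of a gene averaged, Uqcrh of complex III was not called against muscle. Next to the muscle-type isoforms, the lowest against muscle were Ndufa1 (−1.86 ± 0.07), Ndufa6 (−1.61 ± 0.06) and the complex V gamma subunit gene Atp5c1 (−1.52 ± 0.09), and against heart Uqcrfs1 (−2.37 ± 0.11), Ndufs6 (−2.34 ± 0.10) and Sdhb (−2.30 ± 0.09). Ndufa1 lay under the median of the hippocampus arrays. In complex V, the catalytic beta subunit gene Atp5b differed little between hippocampus and muscle (0.04 ± 0.06, adjusted p = 0.583), with 11.22, 11.23 and 11.14 against 11.22, 11.16 and 11.09. With arrays centred on their medians it was lower in hippocampus (−1.22, adjusted p = 7.24e-11), and after quantile normalization the difference was again near 0 (0.0023).

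These counts moved with the scaling of the arrays. The array medians were 3.68 to 3.71 in hippocampus, 2.61 to 2.63 in heart and 2.44 to 2.49 in muscle. With arrays centred on their medians, hippocampus against muscle gave 78 lower and 2 higher genes, against heart 77 lower and 2 higher, and heart against muscle 52 higher and 1 lower; quantile normalization gave 74 and 4, 76 and 3, and 65 and 1. The share of all probe sets called higher in hippocampus against muscle was 20.6% after centring and 22.6% after quantile normalization, against heart 19.2% and 21.5%, and in heart against muscle 18.3% and 19.3%. Relative to the median of all probe sets, the members' median was 0.47 higher in heart than in muscle, −1.47 in hippocampus against muscle and −1.98 in hippocampus against heart (0.48, −1.50 and −2.00 after quantile normalization). Of the 9 genes called higher in hippocampus than in muscle, Ndufb10 (0.71), Ndufv3 (0.60), Cox7a2l (0.56) and Ndufa12 (0.36) turned to called lower under both scalings, and Cox7b2, Cox8c and Cox6b2 did so with arrays centred, which left Cox6a1 and Cox8a. In tissue RNA, fewer cells of a type and less RNA per cell cannot be told apart.

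**Figure D2:**
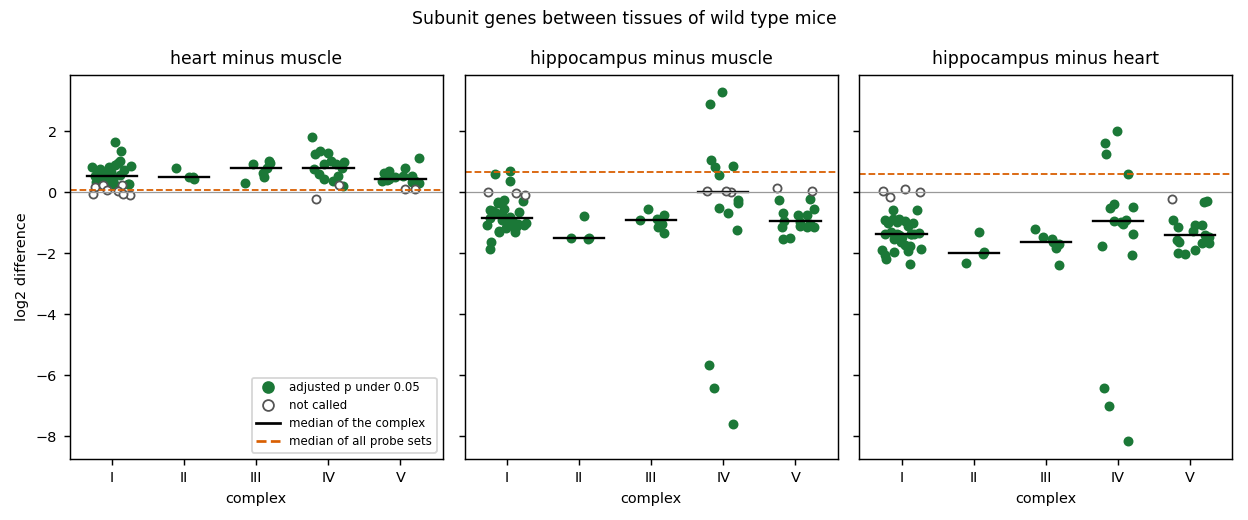
Log2 difference between tissues of wild type mice for each of the 80 subunit genes (points), by complex; filled points had an adjusted p under 0.05, the black line is the median of the complex and the dashed line that of all probe sets. Heart lay above muscle by a median of 0.54, and hippocampus lay below both, with the 3 muscle-type isoforms of complex IV at −5.64 to −8.15.

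The question of the study's design is what the transgene alters in each tissue. In skeletal muscle, 17 of the 80 genes were higher in Tg than in WT arrays, 1 was lower and 62 were not called, against 3.86% of all probe sets higher and 4.3% lower. Members are mostly bright, and of the 23072 probe sets whose highest group mean reached the median of all values, 1292 were higher and 1491 lower. The differences were small: 0.27 to 0.50 among the genes called higher, and a median of 0.15 over the 80 genes against 0.02 over all probe sets, with 70 of 80 above 0. In 41 genes all Tg arrays lay above all WT arrays and in 1 all lay below, where 11.6% and 10.3% of all probe sets did. Over all 111 member probe sets, 20 were higher and 1 lower. When the fit was limited to the 6 muscle arrays, 1 gene was called (Ndufb5, adjusted p = 0.0335), and the count of 18 fell to 10 without Tg muscle array 3 and to 11 without WT muscle array 3. The shares of all probe sets called in these fits are not given, so the falls are not read as particular to the members.

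Complex I held 6 of the genes called higher and the 1 called lower, of 35. Ndufb5, which encodes an accessory subunit of the membrane arm, stood at 8.73, 8.71 and 8.74 in Tg muscle and at 8.25, 8.23 and 8.19 in WT muscle (1.42-fold, difference 0.50 ± 0.09, adjusted p = 0.00145). Ndufa1, which encodes a small accessory subunit that complex I needs for its assembly, stood at 5.97, 5.85 and 5.86 in Tg muscle and at 5.45, 5.45 and 5.50 in WT muscle (0.43 ± 0.07, 0.00134). The spread within the groups of both genes was small beside their difference, though a dim second probe set of Ndufb5 was not called (0.34 ± 0.16, 0.268). Ndufb10 had values of 5.37, 5.21 and 5.17 in Tg muscle against 4.84, 4.75 and 4.77 in WT muscle (0.46 ± 0.10, 0.00885). Ndufa9, an accessory subunit of the arm that holds the redox centres, stood at 8.79, 8.96 and 8.80 against 8.57, 8.46 and 8.35 (0.39 ± 0.08, 0.00752). In Ndufa2 the Tg values of 8.12, 8.39 and 8.56 were spread widely above WT values of 7.89, 7.92 and 7.89 (0.46 ± 0.10, 0.010). The remaining call was Ndufb9 (0.27 ± 0.06, 0.0173), which is outside the fixed rule for naming genes and was chosen after its values were seen.

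Ndufa11 moved against the others. This gene encodes a membrane arm subunit that lies where complex I meets complex III in supercomplexes, and it stood at 8.81, 8.88 and 8.90 in Tg muscle against 9.27, 9.40 and 9.31 in WT muscle. All Tg arrays were below all WT arrays (−0.46 ± 0.08, adjusted p = 0.00165). Its other probe set gave −0.31 ± 0.10 and was not called (0.0910). RefSeq lists 18 pseudogenes whose symbols begin as those of members do. They include Cox7c-ps1, named after a gene that is not a member, as well as Ndufa11b and copies of Cox5b, Uqcrh, Atp5c1 and Ndufs6. For no member was it tested which copy a probe set reads. The measured genes of the catalytic core of complex I were not called, with Ndufs1 at 0.26 ± 0.09 (0.0910), Ndufv1 at 0.18 ± 0.10, Ndufv2 at 0.18 ± 0.09, Ndufs3 at 0.15 ± 0.09, Ndufs7 at 0.13 ± 0.06 and Ndufs8 at 0.07 ± 0.07. These genes, and Uqcrc1, Uqcrq, Atp5a1 and Atp5b where they are named, were picked by role after their values were seen. Ndufa4, counted in complex I by its symbol though its product is now known as a subunit of complex IV, was at −0.04 ± 0.07.

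The promoters of Ndufb5 and Ndufa1, the members with the smallest p among the genes higher in Tg muscle, held none of the 6 motifs searched and so have no capitals.
Ndufb5, chr3:32736813-32737112, plus strand: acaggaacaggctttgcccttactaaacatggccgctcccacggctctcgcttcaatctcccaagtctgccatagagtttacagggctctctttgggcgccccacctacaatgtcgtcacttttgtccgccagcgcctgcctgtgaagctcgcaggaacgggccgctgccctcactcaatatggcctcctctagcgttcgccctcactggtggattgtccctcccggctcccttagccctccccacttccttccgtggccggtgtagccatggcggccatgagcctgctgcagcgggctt
Ndufa1, chrX:37191189-37191488, minus strand: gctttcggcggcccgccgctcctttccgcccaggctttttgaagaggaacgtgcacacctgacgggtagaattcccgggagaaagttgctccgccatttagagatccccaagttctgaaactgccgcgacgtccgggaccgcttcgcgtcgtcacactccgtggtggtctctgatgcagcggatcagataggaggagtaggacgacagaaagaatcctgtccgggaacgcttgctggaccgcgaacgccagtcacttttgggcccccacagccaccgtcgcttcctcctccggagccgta
Of the 18 genes called in muscle, 14 had a promoter in the table and 5 of these held the NRF1 core (Atp5o, Ndufa11, Ndufb10, Sdhd and Uqcr10), against 19 of 52 genes that were not called.

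In complex II, 1 of 4 genes was called. Sdhd, which encodes an anchor in the membrane, stood at 9.53, 9.41 and 9.38 in Tg muscle against 9.12, 9.07 and 9.03 in WT muscle (0.37 ± 0.10, adjusted p = 0.0308). The other anchor gene Sdhc was at 0.05 ± 0.07, and the catalytic genes Sdha and Sdhb were at 0.08 ± 0.07 and −0.08 ± 0.09. The call of Sdhd was lost whichever muscle array was left out (adjusted p 0.0519 to 0.107).

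Complex III had 3 of 7 genes called higher and the highest median of the complexes, 0.31. Uqcrfs1 stood at 6.74, 7.01 and 7.03 in Tg muscle against 6.35, 6.54 and 6.53 in WT muscle (0.45 ± 0.11, adjusted p = 0.0185). Uqcr10, a small subunit gene, stood at 8.67, 8.42 and 8.45 against 8.14, 8.10 and 8.24 (0.35 ± 0.08, 0.0124), and its other probe set was at 0.24 ± 0.11 and not called. The groups did not overlap in either gene. Uqcrh, the hinge protein gene, was at 0.31 ± 0.08 (0.0244), and its other probe set was dim and at 0.08 ± 0.34 (0.946). For Uqcr11 the brighter probe set missed the threshold (0.38 ± 0.12, 0.0585) while the other passed it (0.69 ± 0.15, 0.0080). The core subunit gene Uqcrc1 was at 0.20 ± 0.07 (0.0981), and Uqcrq at 0.04 ± 0.08.

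Complex IV had 3 of 17 genes called higher, none of them a tissue isoform. Cox5b stood at 10.43, 10.33 and 10.35 in Tg muscle against 10.12, 10.05 and 10.02 in WT muscle (0.31 ± 0.07, adjusted p = 0.00767), and its other probe set was called too (0.28 ± 0.08, 0.0323). Cox4i1 stood at 9.18, 9.32 and 9.27 against 9.03, 9.0 and 8.92 (0.27 ± 0.07, 0.0217). Cox7a2l stood at 5.95, 5.76 and 5.51 against 5.31, 5.43 and 5.25 (0.41 ± 0.11, 0.0329), with 0.41 ± 0.11 at its other probe set (0.0257). The muscle-type isoforms did not pass, with Cox6a2 at −0.13 ± 0.09 (0.502), Cox7a1 at 0.14 ± 0.11 (0.571) and Cox8b at −0.01 ± 0.08 (0.982). Neither did the general ones: Cox6a1 was at 0.37 ± 0.15 (0.191), Cox7a2 at 0.10 ± 0.08 (0.583) and Cox8a at 0.11 ± 0.10 (0.661). The other probe set of Cox6a1 was at 0.02 and not called either.

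Complex V had 4 of 17 genes called higher and all 17 above 0 (median 0.19). Atp5o, which encodes the stalk protein that ties the catalytic head to the membrane part, stood at 9.81, 9.72 and 9.71 in Tg muscle against 9.31, 9.38 and 9.41 in WT muscle (0.38 ± 0.09, adjusted p = 0.0121). Its dimmer probe set gave 0.39 ± 0.16 and was not called (0.174). Atp5e, the epsilon subunit gene of the central stalk, stood at 7.31, 7.67 and 7.32 against 6.99, 7.08 and 6.89 (0.45 ± 0.13, 0.0424), with array 2 of the Tg group well above the others. Atp5mpl, a small membrane subunit gene, stood at 7.92, 8.06 and 7.90 against 7.79, 7.66 and 7.48 (0.32 ± 0.09, 0.0364). The stalk gene Atp5j, chosen after its values were seen, was at 0.27 ± 0.07 (0.0297). The catalytic genes Atp5a1 and Atp5b stood at 0.05 ± 0.08 and 0.05 ± 0.06, and the c ring genes Atp5g1, Atp5g2 and Atp5g3 at 0.04 ± 0.07, 0.19 ± 0.08 and 0.22 ± 0.07 (0.827, 0.165 and 0.0545).

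**Figure D3:**
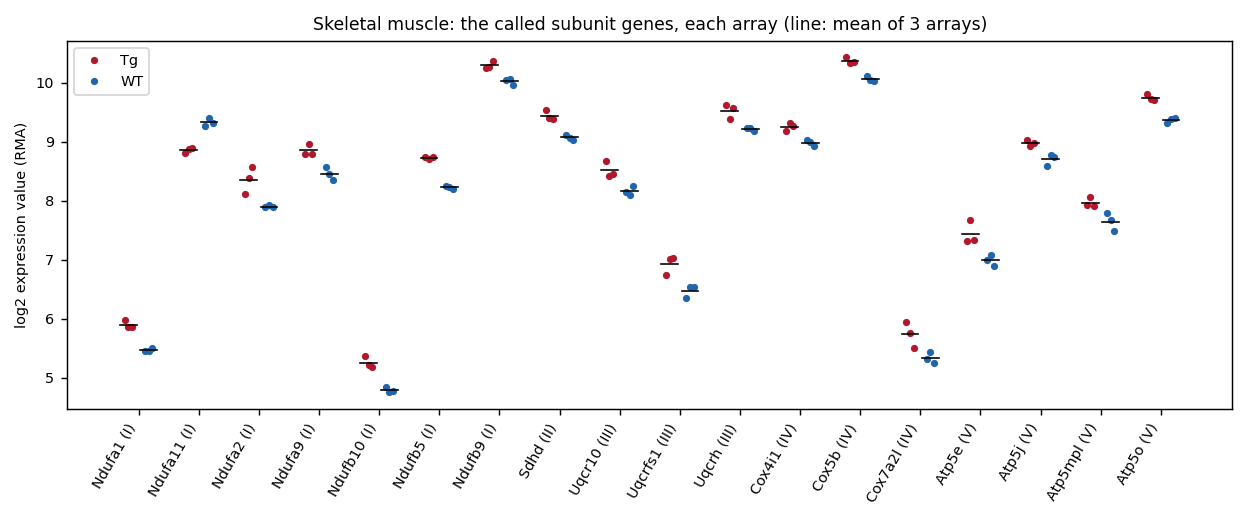
Log2 expression value of the 18 subunit genes called in skeletal muscle, on each Tg (red) and WT (blue) array, with the mean of 3 arrays as a line and the complex in brackets. The Tg arrays lie above the WT arrays in 17 genes and below them in Ndufa11, by 0.27 to 0.50 in size.

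The calls differed in how far they rested on single arrays. Those of Ndufb5, Ndufb10, Ndufa2, Ndufa1, Ndufa9, Ndufa11, Cox5b and Atp5o held whichever muscle array was left out. Uqcr10 was lost without Tg array 1 or WT array 2, and Uqcrfs1 without Tg array 2 or 3 or WT array 1. Cox7a2l was lost without Tg array 1 or 2 or WT array 1 or 3, and Cox4i1 without Tg array 2 or 3 or WT array 2 or 3. Ndufb9 was lost without Tg array 3 or WT array 3. Of the 6 fits, Atp5j was called in 2 (without Tg array 2 or WT array 2), Uqcrh only without Tg array 2, Atp5e only without Tg array 1, Atp5mpl only without WT array 1, and Sdhd in none. Per array, the median deviation of the 80 genes from the WT mean was 0.17, 0.15 and 0.14 in Tg muscle and 0.03, 0.00 and −0.04 in WT muscle, so the 3 Tg arrays lay close together and apart from the WT arrays.

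Some markers of other cell types were called in muscle as well, where 3.86% of all probe sets were called higher and 4.3% lower. Calls fell on 1 of 9 neuronal and 1 of 5 astrocyte genes (lower) and on 1 of 7 cardiac muscle genes (higher). The mean log2 value of 7 endothelial genes was 5.81 to 6.31 on Tg muscle arrays and 6.58 to 6.69 on WT muscle arrays, with 4 of 7 genes lower (Tek, Emcn, Cldn5 and Egfl7). That of 6 macrophage genes was 3.35 to 3.53 against 2.99 to 3.31 (Cd68 higher), that of 4 white adipocyte genes 5.20 to 5.65 against 4.35 to 5.03 (Adipoq higher), and that of 5 atrial muscle genes 3.48 to 3.59 against 2.97 to 3.15 (Sln and Kcnj3 higher). Their part in the result was not tested. Of 10 fast fibre genes 0 were called, with array means of 11.14 to 11.22 in Tg and 11.11 to 11.23 in WT muscle. Of 9 slow fibre genes Myl2 was called higher, and the array means overlapped, at 7.72 to 8.56 and 8.11 to 8.24. All 3 brown adipocyte genes lay under the array median in both genotypes.

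Other mitochondrial genes in muscle showed calls in some groups and not in others. Of 49 genes for assembly factors and further respiratory chain proteins, 14 were higher in Tg muscle and 1 was lower (median 0.20), led by the complex I assembly gene Ndufaf3 (0.92 ± 0.10, adjusted p = 2.47e-05), the complex IV assembly gene Coa5 (0.65 ± 0.08, 5.59e-05) and Ndufab1, the mitochondrial acyl carrier protein gene that also serves complex I (0.48 ± 0.07, 0.000682). The complex IV assembly gene Coa3 was lower (−0.45 ± 0.08, 0.00241). Of 74 genes of mitochondrial ribosomal proteins, 18 were higher and 2 lower (median 0.19), with Mrpl47 at 0.64 ± 0.07, Mrpl54 at −1.44 ± 0.11 and Mrps15 at −0.66 ± 0.07. None of 12 citric acid cycle genes was called, and of 10 carrier genes only Slc25a5, an ATP and ADP carrier, was (0.37 ± 0.07, 0.00281). These lists were drawn up with earlier results of the data known, and their counts are read against the same 3.86% and 4.3% of all probe sets.

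Of 16 measured regulators of mitochondrial biogenesis, 3 were higher and 2 lower in Tg muscle. Ppargc1b, a coactivator of mitochondrial genes, was at 0.91 ± 0.15 (adjusted p = 0.00105), the mitochondrial transcription factor gene Tfb2m at 0.28 ± 0.08 (0.0327), and Nrip1, a corepressor known to lower oxidative genes in muscle, at 0.53 ± 0.12 (0.0126). The nuclear receptor gene Ppard was at −0.55 ± 0.09 (0.000738) and the mitochondrial RNA polymerase gene Polrmt at −0.29 ± 0.08 (0.0391). Ppargc1a, Nrf1, Gabpa and Esrra were not called, at −0.12 ± 0.10, −0.04 ± 0.15, −0.18 ± 0.09 and 0.18 ± 0.10; these 4 were picked by role, after their values were seen.

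In heart, limma called 0 of the 80 genes, against 1.57% of all probe sets higher and 1.62% lower in Tg heart, and 12 (15%) had an unadjusted p under 0.05, as did 15% of all probe sets. The median difference was 0.07 against 0.00 for all probe sets. All Tg heart arrays lay above all WT heart arrays in 17 genes and below them in 4, where 9.19% and 9.35% of all probe sets did. The members with the smallest p included 3 of the genes called in muscle. Ndufa9 stood at 9.48, 9.73 and 9.53 in Tg heart and at 9.28, 9.38 and 9.21 in WT heart (0.29 ± 0.08, adjusted p = 0.0814). Ndufa11 stood at 9.87, 9.71 and 9.78 against 10.01, 10.11 and 10.07 (−0.28 ± 0.08, 0.0853), and Ndufa2 at 8.57, 8.51 and 8.54 against 8.14, 8.24 and 8.30 (0.32 ± 0.10, 0.123). In these 3 genes the groups did not overlap. Ndufs4, Cox8a and Sdhc were at 0.30 ± 0.10, 0.29 ± 0.10 and 0.20 ± 0.07 (0.154, 0.174 and 0.162). With an intensity trend and a robust prior, or at an adjusted p under 0.10, Ndufa9 and Ndufa11 were called. The shares of all probe sets called under these 2 settings are not given, so these calls are not read as results about the members.

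Some marker lists held calls in heart too, where 1.57% of all probe sets were called higher and 1.62% lower. Lower calls fell on 1 of 9 slow fibre, 1 of 7 cardiac muscle and 1 of 9 neuronal genes. The mean of the 7 endothelial genes was 7.10 to 7.41 on Tg heart arrays and 7.70 to 7.76 on WT heart arrays, with Tek and Cldn5 called lower, and of 5 atrial genes Nppa and Kcnj3 were called higher, with array means of 6.34 to 7.79 and 5.85 to 7.02. Their part in the differences of the members was not tested. Of the 49 genes for assembly factors and further respiratory chain proteins, Ndufab1 and Taco1 were higher (0.33 ± 0.07 and 0.44 ± 0.10) and Foxred1 lower (−0.49 ± 0.09). Of the 74 mitochondrial ribosomal genes, Mrpl54 was lower (−0.77 ± 0.11). Counts this small are not read as results about these lists. None of the 16 regulators was called in heart.

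In hippocampus, limma called 0 of the 80 genes and 0% of all probe sets, and 4 members (5%) had an unadjusted p under 0.05, against 5.04% of all probe sets. The median difference was 0.02 against −0.01 for all probe sets. All Tg arrays lay above all WT arrays in 12 genes and below them in 3, where 5.95% and 7.37% of all probe sets did. The smallest p belonged to Atp5h, a stalk subunit gene of complex V, at 9.0, 9.09 and 9.02 in Tg hippocampus against 8.85, 8.87 and 8.77 in WT hippocampus (0.21 ± 0.08, adjusted p = 0.917). Ndufa1 (−0.17 ± 0.07), Ndufa12 (−0.20 ± 0.09), Ndufa4l2 (0.31 ± 0.14), Sdhd (−0.20 ± 0.10) and Ndufs4 (0.20 ± 0.10) followed. No assembly factor, regulator or mitochondrial ribosomal gene was called there.

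**Figure D4:**
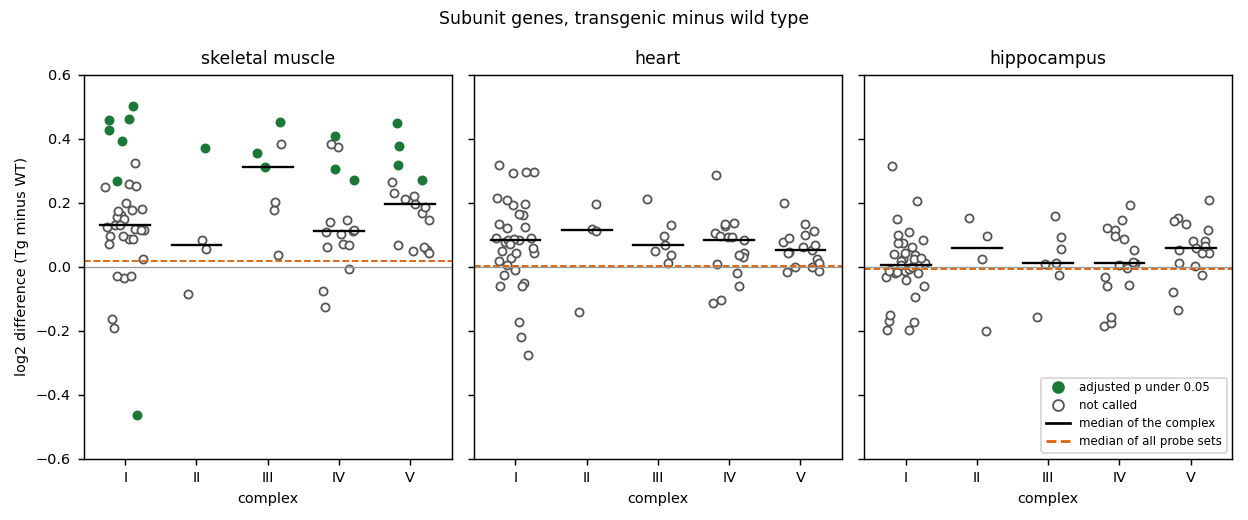
Log2 difference (Tg minus WT) of each of the 80 subunit genes (points) in the 3 tissues, by complex; filled points had an adjusted p under 0.05, the black line is the median of the complex and the dashed line that of all probe sets. The median over the 80 genes was 0.15 in skeletal muscle, 0.07 in heart and 0.02 in hippocampus, and all 18 called genes are in muscle.

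Whether the genotype difference itself differed between tissues was tested with the interaction of genotype and tissue. The moderated F test called 2 of the 80 genes, against 3.89% of all probe sets, a share the members' count does not exceed, and 14 (17.5%) had an unadjusted p under 0.05, against 15.9% of all probe sets. Ndufa1 was the clearer (adjusted p = 0.0092), with differences of 0.43 ± 0.07 in muscle, 0.13 ± 0.07 in heart and −0.17 ± 0.07 in hippocampus. Its heart values were 5.75, 5.82 and 5.79 in Tg and 5.76, 5.66 and 5.53 in WT arrays, and its hippocampus values 3.41, 3.50 and 3.38 against 3.65, 3.55 and 3.61, under the median of those arrays. Uqcr10 passed narrowly (0.0429), with 0.35 ± 0.08 in muscle, 0.21 ± 0.08 in heart and −0.16 ± 0.08 in hippocampus, and its call was lost in 15 of 18 fits that left out 1 array. The call of Ndufa1 held in all 18 (0.00733 to 0.0292).

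Between pairs of tissues, the difference between the hippocampus and muscle differences was called for 6 members, against 3.4% of all probe sets: Ndufa1 (−0.60 ± 0.10), Ndufa2 (−0.61 ± 0.14), Ndufb5 (−0.48 ± 0.12), Sdhd (−0.57 ± 0.14) and Uqcr10 (−0.51 ± 0.12) were lower in hippocampus and Ndufa11 was higher (0.44 ± 0.11), with adjusted p of 0.00393 to 0.0456. For this pair, 22 members (27.5%) had an unadjusted p under 0.05, against 14% of all probe sets. Between heart and muscle 0 were called, against 2.55%, with 10 (12.5%) at an unadjusted p under 0.05 where 14.4% of all probe sets were. Between hippocampus and heart 0 were called, against 0.582%, with 7 (8.75%) at an unadjusted p under 0.05 where 10.1% of all probe sets were. For the other genes called in muscle, a difference from the other tissues was therefore not shown.

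**Figure D5:**
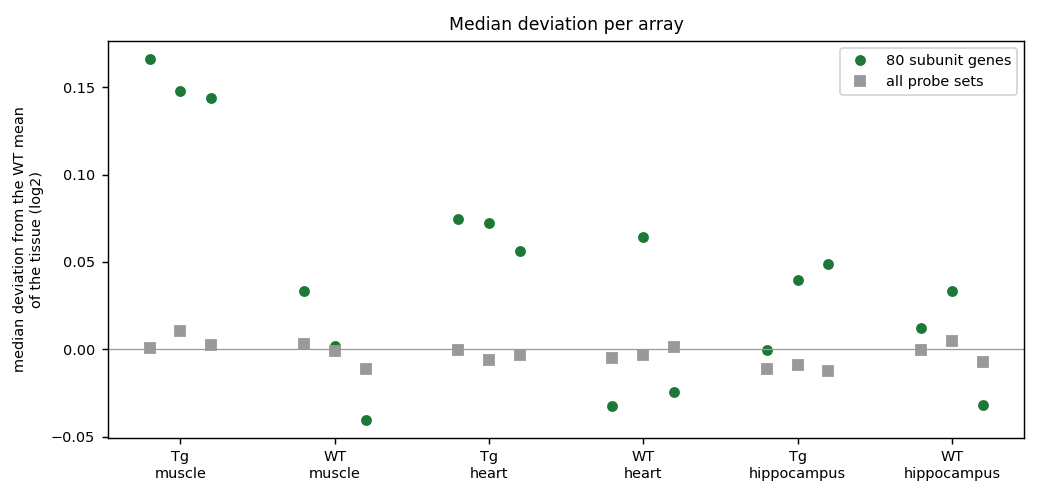
Median, over the 80 subunit genes (circles) and over all probe sets (squares), of each array's log2 deviation from the WT mean of its tissue, by group. The 3 Tg muscle arrays lie at 0.14 to 0.17 and the WT muscle arrays at −0.04 to 0.03; in heart 1 WT array, at 0.06, reaches the level of the Tg arrays, and in hippocampus the groups overlap.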

How the data were processed

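Total RNA of 18 samples was hybridised to Affymetrix arrays after whole-transcript sense labelling of 100 ng, per the labels' protocols. The authors deposited 1 table of log2 expression values, and the submitters' processing notes name RMA and R 2.10.0. Which chip definition and filters were used, and whether the tissues were normalized in 1 run, is not given in the sources used here. No further normalization was applied. A means model with 6 groups was fitted to all 35382 probe sets with limma 3.58.1 (R 4.3.3), with two-sided moderated tests and Benjamini-Hochberg adjustment. Symbols came from the platform annotation: 21153 probe sets had 1 symbol, 1867 several and 12362 none. Named genes were up to 12 called members a direction by size for genotype (the 6 with the smallest p where under 5 were called), up to 8 by p for the interaction, the 6 highest and 6 lowest between tissues, the isoform families, the 4 Sdh genes, the called member with the smallest p in each complex, up to 3 genes of each other list, and genes whose probe sets differ in call. The members and lists were chosen with earlier results of these data known. Same-numbered samples correlated at −0.054 to 0.047 in their deviations, so the numbers were not taken as pairs. Alternatives were single-tissue fits, other scalings, filters, thresholds, priors, probe set choices, a replicate block and leaving out each array. The procedure was tested on simulated data. Figures were drawn with matplotlib 3.10.9.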

Additional observations from a re-analysis of the deposited data

Results flagged for a closer look

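The genotype difference of Ndufa1 differed between tissues by the interaction test of limma (adjusted p = 0.0092): it was 0.43 ± 0.07 in skeletal muscle, 0.13 ± 0.07 in heart and −0.17 ± 0.07 in hippocampus (SE, 3 arrays in each group). That of Uqcr10 differed too (adjusted p = 0.0429), at 0.35 ± 0.08 in muscle, 0.21 ± 0.08 in heart and −0.16 ± 0.08 in hippocampus. In hippocampus neither gene was called by itself, and Ndufa1 lay under the array median there.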

How the results depend on the processing

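The count of called subunit genes in Tg against WT muscle was 18, where 3.86% of all probe sets were called higher and 4.3% lower. For the other fits below, no share of all probe sets stands beside the counts. A change in count is therefore not read as particular to the members. The count in muscle was 1 with only the muscle arrays fitted, 6 at an adjusted p under 0.01, and 10 to 14 when 1 muscle array was left out. In heart it was 0, but 2 with an intensity trend and robust prior and 2 at an adjusted p under 0.10, and 0 in every fit that left out 1 array; in hippocampus it was 0 in these fits. The interaction count of 2 was 1 with the replicate block, 1 with centred arrays, 1 with probe sets averaged per gene, 1 at an adjusted p under 0.01, 5 with dim probe sets left out, 6 with a trend and robust prior, 6 at an adjusted p under 0.10, and 1 to 2 without 1 array. The replicate block gave 15 genes in muscle, 0 in heart, 0 in hippocampus, and 66, 72 and 75 in the tissue comparisons (heart against muscle, hippocampus against muscle, hippocampus against heart), which ran from 63 to 68, 69 to 72 and 75 to 76 without 1 array. A limit to probe sets at or above the muscle median, chosen after seeing the data, gave 24 in muscle. With arrays centred, the difference between hippocampus and muscle turned to lower for Cox7b2 (−0.21), Cox8c (−0.41), Cox6b2 (−0.41), Ndufb10 (−0.55), Ndufv3 (−0.66), Cox7a2l (−0.70) and Ndufa12 (−0.90), which had been called higher, and for Cox4i2 (−1.22), Cox6b1 (−1.23), Cox7a2 (−1.21), Atp5b (−1.22) and Atp5k (−1.10), which had not been called. Between hippocampus and heart it did so for Cox8c (−0.47), called higher before, and for Ndufa12 (−0.96), Ndufb2 (−1.08) and Ndufs5 (−1.05), not called before. With quantile normalization the first turned for Ndufb10 (−0.80), Ndufv3 (−0.80), Cox7a2l (−0.84), Ndufa12 (−0.71), Cox4i2 (−1.41), Cox6b1 (−0.64), Cox7a2 (−1.05) and Atp5k (−1.09), and the second for Ndufa12 (−0.83), Ndufb2 (−1.18) and Ndufs5 (−1.08). Centring set the array medians to a common level, and quantile normalization gave all arrays a common distribution of values. The cause of the differences between the scalings was not tested. The single-tissue fit was not run for the interaction, nor quantile normalization within tissues for comparisons between them. Signals near the array median, as for Cox7b2 and Cox8c, limit what can be read.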
